A study of Mus musculus with 6 samples.

Results

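The genes described here encode the secreted and membrane-bound metalloproteases that cut extracellular matrix and cell-surface proteins, and their natural inhibitors. They are the matrix metalloproteinases (Mmp genes), the ADAM proteins (Adam genes), the ADAMTS proteins (Adamts genes) and the tissue inhibitors of metalloproteinases (Timp genes). They were taken by gene symbol, and 79 of the 24214 features in the count tables qualified: 23 Mmp, 33 Adam, 19 Adamts and 4 Timp genes. The choice was made with earlier results of these data known. RNA sequencing counts were compared between 3 samples of 393P cells with ectopic ZEB1 (393P_ZEB1) and 3 samples with the empty vector (393P_vector). ZEB1 is a transcription factor that represses epithelial genes during epithelial-mesenchymal transition (EMT). 393P is a cell line from mouse lung adenocarcinoma (strain C57BL/6 in the labels), described by the study as epithelial, and all 6 samples carry a stably transfected, drug-selected vector and were grown in RPMI-1640 with 10% fetal calf serum. The labels do not say whether the replicates came from separate transfections or cultures, so p-values measure only the spread between these samples, which may be technical.

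MMPs digest collagens, laminins, proteoglycans and one another. Most are made as inactive precursors and secreted, while the membrane-type MMPs stay anchored at the cell surface. ADAMs are transmembrane proteins, and those with an active protease domain release growth factors, cytokines and adhesion molecules from the cell surface. ADAMTS proteins are secreted, and several cut aggrecan and versican or process procollagen. TIMPs bind the active site of these enzymes, with TIMP3 reaching furthest into the ADAM and ADAMTS families. Transcript levels were measured here, not precursor activation or enzyme activity.

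Total counts ran from 54442450 to 79158012 per sample, and the 79 genes took between 0.180% and 0.202% of the counts in 393P_vector and between 0.224% and 0.227% in 393P_ZEB1. Levels are given as CPM, read counts scaled to the normalized library size, and 3 counts corresponded to between 0.0361 and 0.0561 CPM. Zeb1 rose from 21.5 ± 0.435 to 51.7 ± 3.01 CPM (SD, n = 3), although the species of the transfected sequence is not stated and its reads may be included. Zeb1 and the marker Cdh2 lie on chromosome 18, whose median log2 fold change was 0.64, against 1.26 for Zeb1 and 2.04 for Cdh2. Medians of the other autosomes ran from -0.43 (chromosome 17) to 0.27 (chromosome 11), and that of the 6 tested Y genes was -6.89. The source of these shifts was not tested. Of 8 epithelial markers 7 were lower in 393P_ZEB1, and the 5 mesenchymal markers (Vim, Cdh2, Fn1, Zeb2 and Twist1) were all higher, whereas none of 5 lung lineage markers was tested, with Scgb1a1 at 0 and a summed level of at most 0.187 CPM. The median log2 fold change was -5.06 for the epithelial and 0.80 for the mesenchymal markers. Vim and Fn1 were already at 5508 ± 335 and 2417 ± 174 CPM in 393P_vector (SD, n = 3) and rose 1.33-fold and 1.48-fold. Marker lists of other cell types summed to 2.60 to 4.83 CPM in 393P_vector against 1.67 to 2.06 CPM in 393P_ZEB1 for leukocytes, 2.26 to 3.06 against 0.972 to 1.14 CPM for fibroblasts and 2.26 to 2.46 against 0.630 to 0.868 CPM for endothelium. Of their tested genes, 1 of 4 (Csf1r), 1 of 3 (Pdgfra) and 1 of 2 (Kdr) passed, each as lower, and their part in the results was not tested. 393P_vector replicate 3 stood apart from the other vector samples, with a chi-square per degree of freedom of 297 and 326 against them, compared with 21.3 between replicates 1 and 2. In bulk samples, fewer cells of a type and less RNA per cell cannot be told apart.

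Of the 79 genes, 40 had enough counts to be tested (12 Mmp, 15 Adam, 10 Adamts and 3 Timp genes). A gene is called when its adjusted p is under 0.05 by edgeR's quasi-likelihood test with Benjamini-Hochberg adjustment over all 13892 tested genes. With ectopic ZEB1, 11 of the 40 rose, 13 fell and 16 did not pass. Over all tested genes, 37.6% were called, 18.3% higher and 19.3% lower, against 60% of these 40, with 27.5% higher and 32.5% lower. A change of at least 2-fold together with the call was found for 19 of the 40, against 17.1% of all tested genes, and the values of both groups did not overlap for 29 of the 40, against 52.8% of all tested genes. The median log2 fold change of the 40 was -0.20, close to the -0.02 of all tested genes, and the values ran from -4.67 to 5.13. A gene that was high in either group could pass the filter on low counts, so these counts describe the tested genes and not the 79. Without 393P_vector replicate 3 the same 24 genes were called, and Mmp11, Mmp14 and Mmp28 besides.

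**Figure D1:**
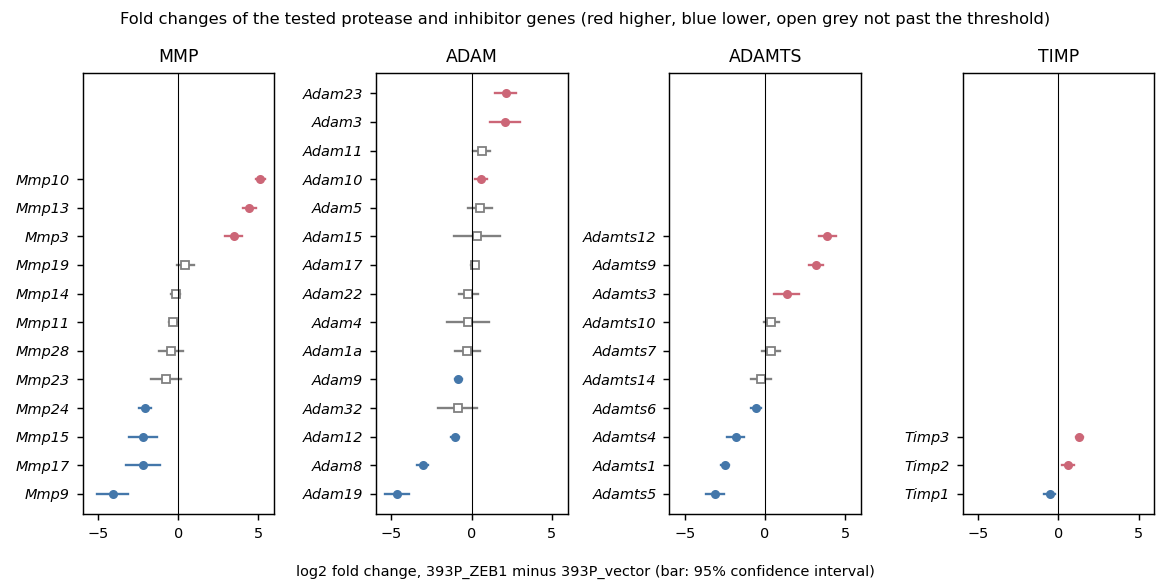
Log2 fold change (393P_ZEB1 minus 393P_vector, horizontal axis) of each of the 40 tested genes in 4 panels by family, with bars for the 95% confidence interval; red points passed the threshold as higher, blue points as lower and open grey squares did not pass. Each family holds genes of both directions, from 5.13 for Mmp10 to -4.67 for Adam19.

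The rises among the MMPs were in secreted enzymes encoded in a single run of MMP genes, and those of Mmp10 and Mmp13 were larger than that of any other tested gene of the 4 families. Mmp13 (collagenase-3, which cleaves fibrillar collagen), Mmp3 (stromelysin-1) and Mmp10 (stromelysin-2), the stromelysins cutting a broad range of matrix proteins, lie within a run of 10 MMP genes on chromosome 9 (chr9:7272514-7699416 in GRCm38). These 3 were the members of the run with enough counts for a test, and all 3 rose, too few to be read against the 18.3% of all tested genes. The other 7, Mmp12, Mmp1b, Mmp1a, Mmp8, Mmp27, Mmp20 and Mmp7, had at most 11 counts in any sample of either group. The stretches of 100 bases before the RefSeq start of the 3 risen genes are printed because each holds the 7-letter AP-1 motif (TGAGTCA or its reverse complement TGACTCA), marked by capitals.
Mmp13, chr9:7272414-7272513, + strand: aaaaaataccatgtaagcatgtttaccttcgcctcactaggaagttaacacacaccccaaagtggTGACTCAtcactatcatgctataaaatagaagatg
Mmp3, chr9:7445722-7445821, + strand: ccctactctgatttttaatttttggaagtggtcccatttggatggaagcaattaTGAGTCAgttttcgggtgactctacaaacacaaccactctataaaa
Mmp10, chr9:7502242-7502341, + strand: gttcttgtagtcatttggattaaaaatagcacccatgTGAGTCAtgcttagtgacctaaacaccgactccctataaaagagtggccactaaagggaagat

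Mmp10 had the largest fold change, in either direction, of the 40 tested genes. It was measured at 2.40, 2.26 and 2.29 CPM in 393P_vector replicates 1 to 3 and at 88.7, 79.4 and 75.6 CPM in 393P_ZEB1 replicates 1 to 3. The groups lay far apart, and the increase was 35.0-fold (95% confidence interval 28.4 to 43.3, log2 fold change 5.13 ± 0.13 SE, adjusted p = 3.71e-07). Only 34 of the 13892 tested genes had a larger log2 fold change. Mmp13 stood at 4.72, 4.49 and 3.36 CPM with the vector and at 103, 82.7 and 85.9 CPM with ZEB1. The 393P_ZEB1 samples again lay above all vector samples, a 21.7-fold increase (16.2 to 29.1, log2 4.44 ± 0.18 SE, adjusted p = 2.23e-06). Mmp3 was scarce in the vector samples, at 0.212, 0.306 and 0.265 CPM, and reached 2.60, 3.22 and 2.83 CPM with ZEB1. The rise was 3.45 ± 0.23 on the log2 scale (SE, confidence interval of the fold 7.55 to 15.9, adjusted p = 1.96e-05), to a level that was still low per exon length, 1.61 CPM per kb against 47.7 for Mmp10 and 34.0 for Mmp13. The exact two-sided permutation test of each of the 3 genes gave p = 0.1, the smallest that 3 samples against 3 allow.

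**Figure D2:**
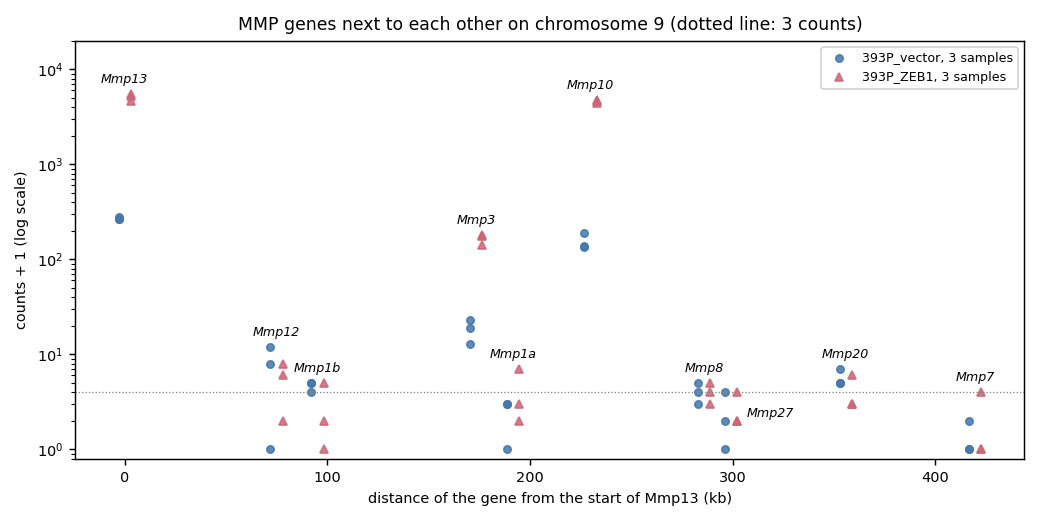
Counts plus 1 in each sample (log scale, vertical axis) for the 10 MMP genes of the chromosome 9 run against the distance of the gene from the start of Mmp13 in kb; blue circles are 393P_vector and red triangles 393P_ZEB1 samples, and the dotted line marks 3 counts. Mmp13, Mmp3 and Mmp10 separate by group, and the 7 genes between and beside them stay at or below 11 counts.

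The reads of the risen MMPs were spread along the genes. The files give the number of exons with over 10 reads, and for Mmp13 this was 6, 4 and 7 of 10 exons in the vector samples and 10 of 10 in each ZEB1 sample. For Mmp10 it went from 5, 5 and 7 of 10 to 10 of 10 in each sample, and for Mmp3 from 0 in each vector sample to 5, 7 and 9 of 10. The number rises with the total count of a gene, so it follows the level and is no separate measurement of it.

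Mmp9, the gelatinase B that digests denatured and basement membrane collagen, moved the opposite way. It fell from 2.53, 2.35 and 2.03 CPM in 393P_vector to 0.187, 0.0360 and 0.180 CPM in 393P_ZEB1. The ZEB1 samples held 10, 2 and 11 reads, and the decrease was 16.8-fold (8.56 to 33.0, log2 -4.07 ± 0.42 SE, adjusted p = 0.000216). The other gelatinase gene, Mmp2, was not tested, with at most 3 counts in every sample.

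Membrane-type MMPs were lower or did not pass. Of the 6 genes of this class (Mmp14, Mmp15, Mmp16, Mmp17, Mmp24 and Mmp25) 4 were tested, of which 3 fell. These 4 are too few to be read against the 19.3% of all tested genes that fell. Mmp15 went from 1.52, 1.24 and 1.02 CPM to 0.318, 0.378 and 0.131 CPM, a 4.57-fold decrease (2.49 to 8.40, log2 -2.19 ± 0.38 SE, adjusted p = 0.00302). Mmp17 stood at 0.495, 0.408 and 0.650 CPM in the vector samples and 0.206, 0.0720 and 0.0655 CPM in the ZEB1 samples, also 4.57-fold lower (2.19 to 9.55, log2 -2.19 ± 0.46 SE, adjusted p = 0.00747). Without 393P_ZEB1 replicate 1, the highest of the ZEB1 samples, the log2 fold change of Mmp17 was -2.89 (adjusted p = 0.00491). This was the largest decrease among the fits leaving out 1 sample. The smallest was -1.89, and the adjusted p of these fits reached 0.0381. Both were rare transcripts in either group, without overlap between groups. Mmp24 fell from 7.61 ± 0.885 to 1.81 ± 0.119 CPM (SD, n = 3, log2 -2.07 ± 0.17 SE, adjusted p = 5.21e-05). It shares 13.6% of its annotated exon bases with BC029722 on the opposite strand, which was also lower, with 14629 counts summed over the vector and 5916 over the ZEB1 samples. Whether counting used the strand is not given in the sources used here, so reads of Mmp24 and BC029722 cannot be told apart in the shared bases.

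Mmp14, which encodes MT1-MMP, an activator of secreted MMPs at the cell surface, was the most abundant MMP of the vector cells. It was measured at 139, 146 and 116 CPM in the vector samples and 116, 116 and 126 CPM in the ZEB1 samples. The groups overlapped and the log2 fold change was -0.16 (95% confidence interval -0.43 to 0.11, adjusted p = 0.304), which leaves room for a decrease but not for a change of the size seen in Mmp10. Relative to the median of its chromosome (-0.26) the value was 0.10, and without 393P_vector replicate 3 it was -0.26 with an adjusted p of 0.0161. The remaining tested MMPs, Mmp11, Mmp19, Mmp23 and Mmp28, did not pass. Mmp11 (stromelysin-3) came nearest, at 20.4 ± 0.941 against 16.6 ± 0.430 CPM (SD, n = 3) with an adjusted p of 0.067 and no overlap between the groups.

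Among the ADAM genes, 3 rose, 4 fell and 8 did not pass. The 46.7% called is near the 37.6% of all tested genes, so the count is no result about the ADAM genes as a group. The falls were in genes of active proteases. Adam19, known for shedding neuregulin, had the largest decrease of all 40 tested genes, from 4.77, 4.40 and 2.71 CPM to 0.168, 0.162 and 0.131 CPM. The groups were far apart, with a 25.5-fold decrease (15.2 to 42.6, log2 -4.67 ± 0.32 SE, adjusted p = 2.38e-05), although its chromosome as a whole shifted upwards, with a median log2 fold change of 0.27. Of the annotated exon bases of Adam19, 8.25% overlap Gm16033 and 6.75% overlap Gm16034, both on the opposite strand. Adam8, a protease best known from leukocytes and from invasive tumor cells, fell from 23.4, 28.5 and 23.3 CPM to 2.77, 3.28 and 3.10 CPM. This was an 8.22-fold decrease (6.43 to 10.5, log2 -3.04 ± 0.15 SE, adjusted p = 5.23e-06). Of the leukocyte markers, 1 of 4 tested was lower (Csf1r) and Ptprc, Cd68 and Itgam did not pass, and their summed level in the vector samples, at most 4.83 CPM, was below that of Adam8 alone. Their part in the fall of Adam8 was not tested.

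Adam9 and Adam12 fell less. Adam9, a broadly expressed sheddase, had the highest level per length of the ADAM genes in both groups and was measured at 438, 457 and 428 CPM with the vector and 241, 253 and 245 CPM with ZEB1. The samples of each group were close to each other, and the decrease was 1.79-fold (1.54 to 2.08, log2 -0.84 ± 0.09 SE, adjusted p = 0.000303). Adam12, which sheds growth factors and is often expressed by mesenchymal cells, went from 53.6 ± 3.18 to 25.9 ± 0.927 CPM (SD, n = 3, log2 -1.05 ± 0.11 SE, adjusted p = 0.000181).

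The 3 ADAM genes that rose were of different kinds. Adam10, the main sheddase of Notch receptors and cadherins, was at 135 ± 12.9 CPM in the vector and 205 ± 39.7 CPM in the ZEB1 samples (log2 0.60 ± 0.16 SE, adjusted p = 0.0188), and the call was lost in the test against a fold change of 1.5 and without 393P_vector replicate 2 or 393P_ZEB1 replicate 1 or 2. Adam23, which lacks protease activity and acts in cell adhesion, rose from 0.282 ± 0.0957 to 1.23 ± 0.0414 CPM (log2 2.13 ± 0.28 SE, adjusted p = 0.000747). Adam3, a sperm gene, passed on few reads, with 3, 2 and 5 counts against 11, 11 and 15 (log2 2.07 ± 0.40 SE, adjusted p = 0.00486). None of its exons had over 10 reads in any sample, and 6.76% of its annotated exon bases overlap Gm45528 on the opposite strand. Adam17, the sheddase of tumor necrosis factor, did not pass, at 93.2 ± 2.54 against 107 ± 3.34 CPM (log2 0.20, adjusted p = 0.119), though the groups did not overlap. The others that did not pass were Adam1a, Adam4, Adam5, Adam11, Adam15, Adam22 and Adam32.

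Adam15 shows how far a single sample can carry a value, and was chosen after its values were seen. It was measured at 92.0, 71.8 and 11.7 CPM in the vector samples and at 86.1, 82.4 and 53.6 CPM in the ZEB1 samples. The low value was that of 393P_vector replicate 3, and the log2 fold change of 0.34 (adjusted p = 0.697) became -0.15 without it.

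In the ADAMTS family 3 genes rose, 4 fell and 3 (Adamts7, Adamts10 and Adamts14) did not pass. That is 70% called of only 10 tested genes, against 37.6% of all tested genes. Among the risen genes, Adamts12, which cleaves cartilage oligomeric matrix protein, went from 0.212, 0.272 and 0.241 CPM to 3.05, 3.69 and 4.08 CPM. The 14.8-fold rise (10.2 to 21.4, log2 3.89 ± 0.23 SE, adjusted p = 1.03e-05) brought 4, 5 and 7 of its 24 exons over 10 reads, from 0 in each vector sample. Adamts9, a versican-cleaving protease, went from 1.20, 1.14 and 0.963 CPM to 8.39, 9.56 and 11.7 CPM. It was 8.99-fold higher (6.55 to 12.4, log2 3.17 ± 0.20 SE, adjusted p = 1.42e-05), with 16, 16 and 19 of 30 exons over 10 reads against 0, 0 and 1. Of the annotated exon bases of Adamts9, 9.18% overlap A730049H05Rik and 2.82% overlap Gm15737, both on the opposite strand. Adamts3, a procollagen N-propeptidase, was rare, at 0.148 ± 0.0196 against 0.378 ± 0.0973 CPM (SD, n = 3, log2 1.36 ± 0.33 SE, adjusted p = 0.0144), and was no longer called without 393P_ZEB1 replicate 3 or against a fold change of 1.5.

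The fallen ADAMTS genes were Adamts1, Adamts4 and Adamts5, which cleave aggrecan and versican, and Adamts6. Adamts1 stood at 101, 108 and 98.0 CPM in the vector samples and at 18.3, 18.6 and 18.3 CPM in the ZEB1 samples. The 5.55-fold decrease (4.71 to 6.55, log2 -2.47 ± 0.10 SE, adjusted p = 2.16e-06) was many times the spread within either group. Adamts5 lies 55.0 kb from Adamts1 on chromosome 16, in the same orientation, and went from 6.02, 5.32 and 6.87 CPM to 0.617, 0.900 and 0.557 CPM. It was 8.78-fold lower (5.99 to 12.9, log2 -3.13 ± 0.24 SE, adjusted p = 3.94e-05), while the median gene of that chromosome had a log2 fold change of 0.25. Adamts4 fell from 6.73 ± 1.54 to 1.88 ± 0.329 CPM (log2 -1.84 ± 0.23 SE, adjusted p = 0.000654). Adamts6 moved least, from 12.9 ± 0.841 to 8.91 ± 0.692 CPM (log2 -0.54 ± 0.13 SE, adjusted p = 0.0149), and lost its call without 393P_vector replicate 1 or 393P_ZEB1 replicate 2 or 3 and against a fold change of 1.5.

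**Figure D3:**
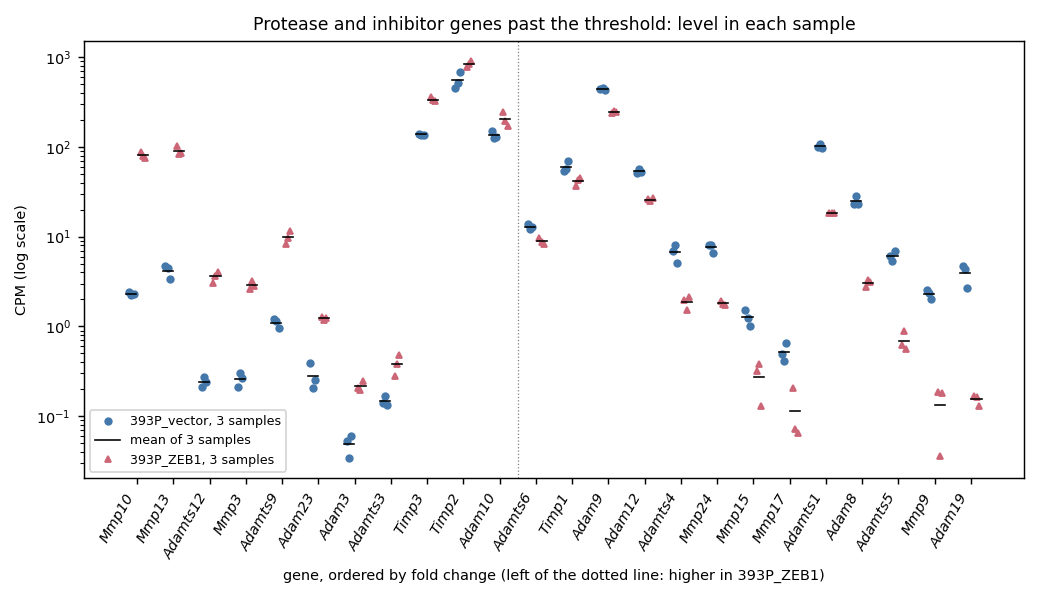
CPM in each sample (log scale, vertical axis) of the 24 genes past the threshold, ordered by fold change from Mmp10 at the left to Adam19 at the right; blue circles are 393P_vector, red triangles 393P_ZEB1, black lines are means of 3 samples, and the dotted line parts higher from lower genes. The groups do not overlap for any of the 24 genes, which is no separate support, since the genes were picked by a test on the same counts. The most abundant of them, Timp2 and Adam9, changed by less than 2-fold.

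The inhibitors did not move together. Timp3, which binds to the matrix and inhibits MMPs, ADAM17 and ADAMTS proteins, rose, as did Timp2, which inhibits MMPs and also takes part in the activation of pro-MMP2 by MT1-MMP, whereas Timp1, a secreted inhibitor of most soluble MMPs, fell. Timp3 was at 140, 136 and 137 CPM with the vector and 356, 332 and 321 CPM with ZEB1. That is a 2.44-fold rise (2.10 to 2.85, log2 1.29 ± 0.09 SE, adjusted p = 3.17e-05), and 21.3% of its annotated exon bases overlap Syn3 on the opposite strand, which had 274 counts in all vector samples and 244 in all ZEB1 samples against 27330 and 57123 for Timp3. Timp2 was at 458, 515 and 680 CPM with the vector and 777, 837 and 916 CPM with ZEB1. The rise was 1.53-fold (1.18 to 1.99, log2 0.61 ± 0.16 SE, adjusted p = 0.0204), the highest vector value being that of replicate 3. Timp1 was at 53.8, 56.5 and 70.2 CPM with the vector and 36.8, 42.3 and 44.8 CPM with ZEB1. It was 1.46-fold lower (1.16 to 1.83, log2 -0.54 ± 0.14 SE, adjusted p = 0.0194).

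The calls for Timp1 and Timp2 were less stable than that for Timp3. Timp2 lost its call without 393P_vector replicate 1 or 2, without 393P_ZEB1 replicate 2 or 3, against a fold change of 1.5 and relative to the median of chromosome 11, which was 0.27 on the log2 scale. Timp1 lost its call without 393P_ZEB1 replicate 1 or 2 and against a fold change of 1.5. Timp4 had between 1 and 5 counts and was not tested.

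Divided by exon length, as CPM per kb of exon, the levels of different genes can be set side by side. Timp2 was the highest of the 79 genes in both groups, at 152 ± 31.8 in 393P_vector and 233 ± 19.3 in 393P_ZEB1 (SD, n = 3). In the vector cells it was followed by Adam9 (110 ± 3.61), Timp1 (68.1 ± 9.96), Mmp14 (51.7 ± 6.13), Adam10 (29.5 ± 2.81) and Timp3 (29.5 ± 0.383), of which the last pair could not be told apart by their spread. With ZEB1 the order after Timp2 was Timp3 (72.0 ± 3.81), Adam9 (61.3 ± 1.42), Mmp10 (47.7 ± 3.93), Timp1 (46.7 ± 4.61), Mmp14 (46.2 ± 2.08), Adam10 (44.7 ± 8.67) and Mmp13 (34.0 ± 4.14), and the levels of Mmp10, Timp1, Mmp14 and Adam10 differed by less than their spread. Mmp10 thus went from 1.36 ± 0.0443 to the range of Mmp14 and Timp1, and Mmp13 from 1.57 ± 0.273 to near that of Adam10.

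Summed over each family, the length-scaled level of the MMP genes was 71.3, 73.8 and 60.2 in the vector and 147, 134 and 136 in the ZEB1 samples. Mmp13 and Mmp10 made up 4.29% ± 0.191 of the sum in 393P_vector and 58.8% ± 2.85 in 393P_ZEB1 (SD, n = 3), and without them the sum was 65.5 ± 6.99 and 57.1 ± 1.88. The ADAMTS sum went the other way, from 30.3, 32.3 and 28.0 to 12.1, 12.7 and 13.3, with Adamts1 contributing 69.6% ± 1.96 of it in the vector and 29.8% ± 1.47 in the ZEB1 samples. The sum of the ADAM genes was 211, 205 and 176 against 174, 163 and 146, so that the lowest vector sample lay just above the highest ZEB1 sample. The TIMP sum was 217, 236 and 297 against 333, 351 and 373. The MMP sum divided by the TIMP sum was 0.328, 0.313 and 0.203 in the vector and 0.441, 0.382 and 0.365 in the ZEB1 samples, the lowest value being that of 393P_vector replicate 3. These sums are descriptions of transcript levels, and no test was made of them.

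**Figure D4:**
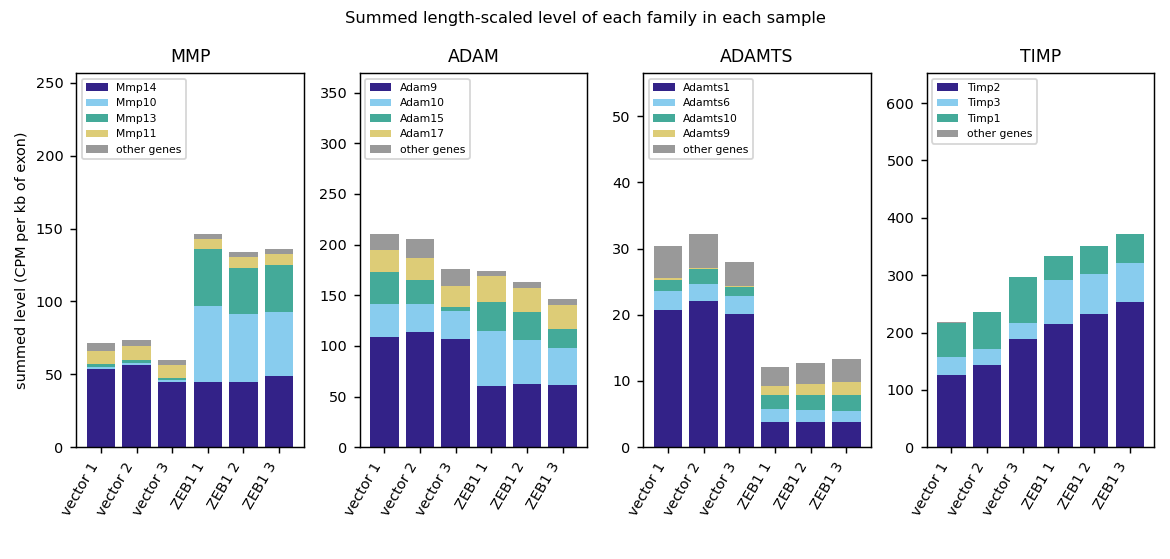
Summed length-scaled level (CPM per kb, vertical axis from 0) of each family in each of the 6 samples, split by colour into its leading genes and all other genes of the family; each panel has its own scale. The MMP bars rise from between 60.2 and 73.8 to between 134 and 147 through Mmp10 and Mmp13, and the ADAMTS bars fall from between 28.0 and 32.3 to between 12.1 and 13.3 mainly through Adamts1.

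The exon counts in the files follow the same genes in the other direction. Of the 24 exons of Adam8, 23, 22 and 24 had over 10 reads in the vector samples and 4, 5 and 6 in the ZEB1 samples. For Adam19 it was 5, 4 and 2 of 23 exons against 0, and for Mmp9 3, 4 and 7 of 13 against 0. Mmp24 had 7, 6 and 7 of 9 exons over 10 reads with the vector and 1 in each sample with ZEB1.

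**Figure D5:**
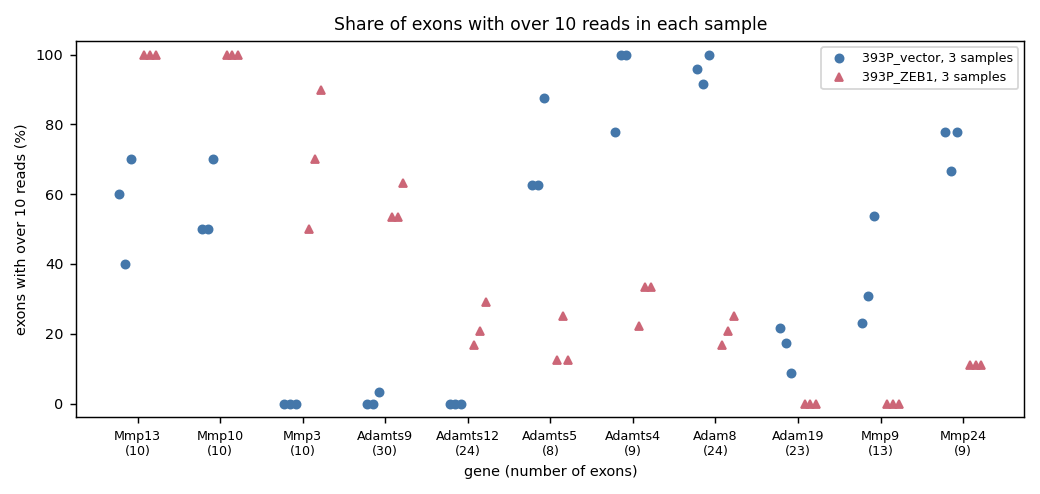
Share of exons with over 10 reads (percent, vertical axis) in each sample for 11 called genes, with the number of exons under each name; blue circles are 393P_vector and red triangles 393P_ZEB1 samples. All 10 exons of Mmp13 and Mmp10 pass in each ZEB1 sample, and none of Adam19 or Mmp9 does.

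The 39 genes that were not tested had between 0 and 25 counts in any sample, with a median of 3. They were Mmp1a, Mmp1b, Mmp2, Mmp7, Mmp8, Mmp12, Mmp16, Mmp20, Mmp21, Mmp25 and Mmp27 among the MMPs, and Adamts2, Adamts8, Adamts13, Adamts15, Adamts16, Adamts17, Adamts18, Adamts19 and Adamts20 among the ADAMTS genes, besides Timp4. The untested ADAM genes were Adam1b, Adam2, Adam6a, Adam6b, Adam7, Adam18, Adam20, Adam21, Adam24, Adam25, Adam26a, Adam26b, Adam28, Adam29, Adam30, Adam33, Adam34 and Adam39, many of them known from testis and sperm. In 13 of the 39, among them Mmp2 and Mmp7, no sample had over 3 counts, and a difference between the groups was not detectable at this depth. Pairs such as Mmp1a and Mmp1b are close copies of each other whose reads the counting may have split.

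Promoter sequences from RefSeq (GRCm38.p6) were found for 48 of the 79 genes and 24 of the 40 tested ones, and 250 bases before each start were searched on both strands. The AP-1 motif, bound by Fos and Jun proteins, was in 3 of 9 risen genes (Mmp10, Mmp13 and Mmp3, shown above), in 1 of 6 fallen genes (Adam19) and in 0 of 9 that did not pass. It was in 3.32% of the 9416 tested genes with a promoter and in 4.46% of all 32851 promoters. Among those tested genes it was in 3.75% of the risen and 4.87% of the fallen ones. Counted from the RefSeq start, it lay at -35 to -29 in Mmp13, -46 to -40 in Mmp3, -63 to -57 in Mmp10 and -131 to -125 in Adam19. The motif was also in Mmp12, Mmp1a, Mmp1b and Mmp7, genes of the same chromosome 9 run with too few counts to be tested, and in Adam29. The matches other than those in Adam19 and Adam29 are in neighbouring, related genes, which are not separate observations.

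The E-box form CACCTG, on either strand, which ZEB1 is known to bind, was in 2 of 9 risen genes (Timp2 and Timp3), 2 of 6 fallen genes (Adam19 and Mmp15) and 1 of 9 that did not pass (Adam22). It was in 15.2% of tested genes and 17.2% of all promoters, and in 15.4% of the risen and 18.8% of the fallen tested genes. This E-box form was also in Adamts17, Adamts20 and Mmp20, which had too few counts to be tested. In Mmp15 it occurred at -161 to -156 and at -137 to -132, and in Adam19 at -135 to -130, where it overlaps the AP-1 letters. These matches are letters in a window and say nothing of binding.

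Genes that mature, traffic or restrain these enzymes were listed alongside them. Of 19 such regulators 15 were tested, and 3 rose, 3 fell and 9 did not pass. The 6 of 15 that were called are a share near the 37.6% of all tested genes, so the count is no result about the regulators as a group. The proprotein convertases, which remove the propeptides of many MMPs, ADAMs and ADAMTS proteins, did not move as one. Pcsk5 rose from 0.610 ± 0.0797 to 8.60 ± 0.263 CPM (log2 3.82, adjusted p = 3.47e-06) and Pcsk6 from 33.5 ± 3.00 to 67.0 ± 5.72 CPM (log2 1.00, adjusted p = 0.000491), while Furin fell from 303 ± 45.8 to 196 ± 16.3 CPM (log2 -0.62, adjusted p = 0.00948). Pcsk7 did not pass (log2 0.47, adjusted p = 0.0943). Among the tetraspanins that escort ADAM10, Tspan15 fell from 31.3 ± 3.27 to 6.49 ± 0.652 CPM (log2 -2.27, adjusted p = 1.44e-05) and Tspan17 rose from 8.80 ± 0.885 to 19.7 ± 4.54 CPM (log2 1.16, adjusted p = 0.0024). The more abundant Tspan5 (log2 0.07, adjusted p = 0.609) and Tspan14 (log2 -0.29, adjusted p = 0.0808) did not pass, and Tspan10 and Tspan33 were not tested. Bsg, which encodes the MMP inducer basigin, was lower, at 434 ± 151 against 222.5 ± 32.4 CPM (log2 -0.97, adjusted p = 0.0158). Its vector values were 341, 354 and 608 CPM, the highest being that of replicate 3. Reck, a membrane-anchored inhibitor of MMPs, did not pass (log2 0.50, adjusted p = 0.0956).

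Among the proteoglycans cut by ADAMTS enzymes, Vcan (versican) rose from 44.2 ± 5.67 to 140 ± 8.90 CPM (log2 1.66, adjusted p = 4.00e-05) and Acan (aggrecan) fell from 121 ± 31.5 to 69.8 ± 8.83 CPM (log2 -0.79, adjusted p = 0.0195), with Bcan and Ncan not tested. Of 6 ADAMTS-like genes, whose proteins lack the protease domain, 3 were tested and Adamtsl5 was lower (log2 -1.92, adjusted p = 7.95e-05). Of 11 other metalloproteases 7 were tested, and 1 rose, 3 fell and 3 did not pass. These lists are too short to be read against the 37.6% of all tested genes. Mme, the surface peptidase neprilysin, fell (log2 -2.53, adjusted p = 0.000134), as did Pappa (log2 -1.22, adjusted p = 0.0197) and Bmp1, a procollagen C-proteinase (log2 -0.65, adjusted p = 0.0135). Pappa2 rose (log2 1.18, adjusted p = 0.0126). The median log2 fold change was 0.07 for the regulators and -0.58 for the other metalloproteases, against -0.02 for all tested genes.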

How the data were processed

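Total RNA of 3 393P_ZEB1 and 3 393P_vector samples had been sequenced on a SOLiD instrument, and the samples were grouped by their labels. The authors deposited for each sample the raw count of reads per RefSeq feature, with GRCm38 coordinates, exon lengths, exons over 10 reads and an RPKM, a count scaled by exon length and total reads. The deposited RPKM values were not used for levels, since the totals they imply were 99.1% to 99.3% of the summed counts; length-scaled levels were recomputed from the counts. The aligner, the counting program and its strand setting are not given in the sources used here.

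Counts were fitted in R 4.3.3 with edgeR 4.0.16 (filterByExpr with a minimum count of 10, TMM, robust quasi-likelihood fit, Benjamini-Hochberg adjustment over 13892 genes, threshold 0.05). The biological coefficient of variation was 0.184. SEs are the absolute log2 fold change divided by the square root of F. An exact two-sided permutation test of log2(CPM + 0.5) was run beside the fit for each gene. Intervals cover 95%. The fit was tested on simulated data with a limit of 10% on the share of false calls. This limit is looser than the threshold of 0.05 used for the calls. It was met on average over seeds, but not in every seed. The limit was first required of every seed and was relaxed to the average after a seed missed it.

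Genes and lists were chosen with earlier results of these data known. Values in every sample are given for the 12 largest absolute log2 fold changes and for called genes among the 5 highest length-scaled levels; all called genes, those 5, all Timp genes and called genes of the lists are named. Adam15, other genes that did not pass, Reck and further markers were named beyond this rule. Promoters came from RefSeq, GRCm38.p6, and exon overlaps from GENCODE M21. Alternatives were no filter, at least 10 counts in every sample, DESeq2 1.42.0 size factors, the DESeq2 Wald test, a replicate block, limma 3.58.1 voom with sample weights, a test against a fold change of 1.5, the median of the chromosome as offset, and leaving out each sample.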

Additional observations from a re-analysis of the deposited data

How the results depend on the processing

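Across 14 alternatives the number of genes called higher ranged from 8 to 15 and lower from 9 to 17, against 11 and 13, each within 1.5 times. The extremes were voom with sample weights (15 and 17), the test against a fold change of 1.5 (8 and 11) and the filter of at least 10 counts in every sample (9 and 9), which tests fewer genes. Leaving out 1 sample gave 9 to 11 higher and 11 to 16 lower. The same 24 genes were called with DESeq2 size factors and with its Wald test, and 19 of the 24 were called in every alternative that tested them. The 5 others, Adam10, Adamts3, Adamts6, Timp1 and Timp2, changed by less than 3-fold. Among the 19, Adam3, Adam19, Mmp9, Mmp15 and Mmp17 were not tested under the filter of at least 10 counts in every sample. Of 344 values for named genes, 322 kept direction and side of the threshold, and 1 reversed: Mmp14, 0.10 relative to the median of its chromosome against -0.16, which had not passed in either case. Without a filter, Adamts2 and Mmp25 were also called.

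With the replicate number as a block, 11 genes were higher and 13 lower, the same 24 genes. Deviations from the group mean correlated at 0.279, -0.205 and -0.0377 between samples of equal number and at -0.182 to 0.222 otherwise, so the numbers were not taken to pair the samples.

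The smallest exact permutation p for 3 samples against 3 is 0.1. The floor of 3 counts covers counting error only, while the confidence intervals of fold changes come from the edgeR fit and include the spread between samples.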
